A study of Homo sapiens with 12 samples.

Results

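The gene expression of MDA-MB468 cells after 24 h with the RORγ antagonist XY018 at 2.5 μM was compared with that of the same cells given vehicle. MDA-MB468 is an established line of triple-negative breast cancer (TNBC), a tumor type that lacks the estrogen and progesterone receptors and ERBB2 amplification, and RORγ is a nuclear receptor that activates transcription. The comparison uses 2 of the 12 RNA-seq samples of the study, 1 library on each side. The same table holds 3 more MDA-MB468 libraries, which received XY018 at 1.25 μM, atorvastatin (ATV, a statin) at 1.25 μM, or both, and a separate experiment treated MDA-MB468 cells with vehicle or the RORγ antagonist GSK805 at 2.5 μM. The other cell line, HCC70, is also TNBC and received the same set of 5 treatments. Where both compounds were given, each was at 1.25 μM, and no group carries a genetic change made for the study.

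The values are FPKM, fragments scaled to transcript length and to the mapped fragments of the library, so levels of different genes can be set side by side per length. A change is the log2 ratio of XY018 to vehicle after 0.1 was added to both FPKM values. Of 18217 genes in the table, 11920 reached 1 FPKM in at least one of the pair and were compared. A gene is called lower or higher here when it differed by at least 1.5-fold, which is a count of size and no test, since 1 library per condition leaves no replicate check and no p-value. The depth was estimated at 19600000 fragments for vehicle and 18100000 for XY018, so that a transcript of 1 kb at 1 FPKM rests on 19 and 17 fragments. Intervals given with single genes are exact Clopper-Pearson 95% intervals of the log2 ratio of estimated fragments and cover counting error only.

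The levels of marker genes were checked against the label of the line. EGFR, which MDA-MB468 is known to carry in many copies, was at 944 FPKM in vehicle and 638 FPKM with XY018. ESR1 was at 0.48 and 0.43 FPKM, PGR was listed at 0 in both libraries, and ERBB2 was at 25.6 and 34.9 FPKM. The epithelial genes EPCAM (112 and 87.8 FPKM) and CDH1 (33.1 and 27.4 FPKM) and the basal genes KRT5, KRT17, CDH3 and FOXC1 were all expressed, whereas the basal markers SOX10 and KRT6A were at 0.10 FPKM or less in both. Of 18 markers of fibroblasts, endothelium, leukocytes, liver and blood, 5 reached 1 FPKM, and the sum over all 18 was 30.6 FPKM in vehicle and 33.7 FPKM with XY018. The most abundant was CD14 in vehicle (17.9 FPKM) and CD68 with XY018 (16.4 FPKM), while CD3E, HBB and COL1A2 were listed at 0 in both libraries. All 5 markers compared differed by at least 1.5-fold, as did 28.6% of all genes (14.5% lower and 14.1% higher). Their log2 ratios were −3.05 for KDR and −1.27 for CD14 against 1.86 for CD68, 0.73 for PTPRC and 0.72 for COL1A1 (median 0.72). PTPRC (0.60 and 1.06 FPKM) passed the filter of 1 FPKM only through the XY018 library and KDR (2.22 and 0.18 FPKM) only through vehicle. For these markers the filter thus favors a difference. The part of the 5 markers in the other results was not tested.

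RORγ is known for its part in T helper 17 cells and in the liver clock, and it shares its DNA element with RORα and with the repressors REV-ERBα and REV-ERBβ. Cells meet accumulating unfolded protein in the endoplasmic reticulum (ER), excess load in the Golgi apparatus or lack of amino acids with separate but linked gene programs, run by XBP1 and ATF6, by CREB3 and TFE3, and by ATF4 and DDIT3. Growth programs of epithelial cells are read out by other genes, among them the targets of YAP and TAZ, which follow cell shape and the actin cytoskeleton, and the targets of E2F, which license DNA replication.

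XY018 moved many genes in both directions. Of the 11920 genes, 1723 were lower (14.5%) and 1682 were higher (14.1%), and 627 (5.26%) and 643 (5.39%) passed 2-fold. The shares at 1.5-fold are the background for each count of list genes in this comparison below. The log2 ratios had a median of 0.0020 and an SD of 0.67, and 5% of genes lay below −1.02 and 5% above 1.03. Just inside the 1.5-fold threshold at 10 FPKM or above were PLS1 (14.7 to 9.76 FPKM) and LRRFIP2 (10.54 to 15.9 FPKM), and just outside it were SF3B3 (26.5 to 17.6 FPKM) and PPOX (7.52 to 11.3 FPKM). Genes at both ends of the expression range were called, as the plot of levels shows.

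**Figure D1:**
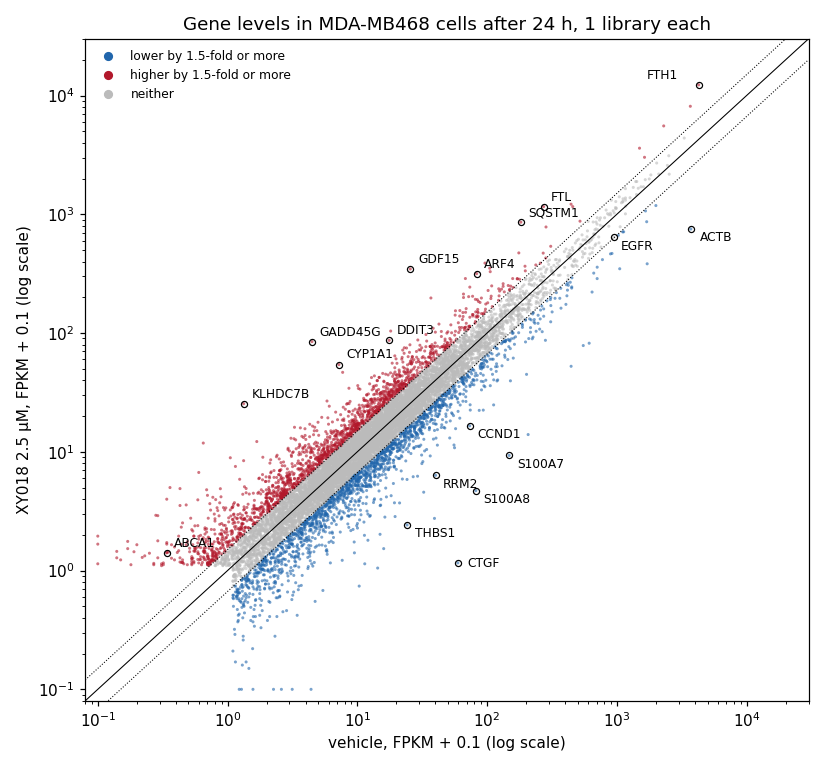
FPKM + 0.1 of 11920 genes in vehicle (x axis) and with XY018 at 2.5 μM (y axis), both on log scales. Each point is a gene, the solid line is equality and the dotted lines are 1.5-fold; 1723 genes lie below the dotted band and 1682 above it, among them ACTB and FTH1, which are among the 10 most abundant genes in vehicle.

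The most abundant transcripts changed places. ACTB, which encodes β-actin and is commonly used to normalize expression, was at 3718 FPKM in vehicle and 751 FPKM with XY018. ACTG1, the other cytoplasmic actin, went from 1713 to 383 FPKM, and ACTB and ACTG1 together from 1.26% to 0.254% of all FPKM. Ferritin moved the other way, with the heavy chain gene FTH1 at 4269.9 and 12298 FPKM and the light chain gene FTL at 272 and 1159.7 FPKM, so that their share went from 1.06% to 3.01%. GAPDH was at 2533.5 and 2176 FPKM, a log2 ratio of −0.22. The MTRNR2L genes, nuclear near-copies of the mitochondrial 16S ribosomal RNA gene, made up 1.91% of FPKM in vehicle and 4.28% with XY018, and 8 of the 8 that were compared were higher. Reads of the mitochondrial RNA and of these copies cannot be told apart in such tables, and reads of the actins and ferritins may be shared with their many pseudogenes. The 10 most abundant genes held 6.72% of FPKM in vehicle and 10.6% with XY018. The part of this shift in the other results was not tested beyond rescaling, which moved the median log2 ratio of all genes by less than 0.1.

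Among genes at 10 FPKM or above, the 20 with the lowest ratios included secreted or matrix genes, S100 proteins and genes of other kinds. CTGF (chr6:132269316-132272512 on GRCh37), a matrix protein and a standard target of YAP and TAZ, had the lowest. It was at 59.4 FPKM in vehicle and 1.06 FPKM with XY018, a log2 ratio of −5.68 (−6.28 to −5.38). S100A8 went from 81.8 to 4.61 FPKM (−4.12), S100A7 from 148 to 9.22 FPKM (−3.99) and S100A9 from 551 to 78.4 FPKM (−2.81). These calcium-binding proteins are made by stressed or inflamed epithelium. IGFBP5, a secreted binder of insulin-like growth factors, went from 207 to 13.9 FPKM (−3.89) and the fibroblast growth factor carrier FGFBP1 from 39.2 to 2.65 FPKM (−3.84). The vasoconstrictor peptide gene EDN2, the ER protein gene ERP27, the keratin KRT4, the matrix genes EFEMP1, THBS1 and MGP, the elastase inhibitor PI3 and the ferroxidase CP were each 6.8-fold lower or more. RRM2, the small subunit of ribonucleotide reductase, was the only gene of nucleotide supply among the 20 and went from 39.99 to 6.24 FPKM (−2.66).

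The 20 genes with the highest ratios included stress genes and genes of other kinds. KLHDC7B had the highest ratio, at 1.23 FPKM in vehicle and 25.3 FPKM with XY018 (4.26). GADD45G, a growth-arrest and stress gene, went from 4.37 to 84.6 FPKM (4.24, interval 3.96 to 4.5995). GDF15 (chr19:18485541-18499986 on GRCh37), a secreted stress cytokine, went from 25.5 to 346 FPKM (3.76, interval 3.64 to 3.89). ATF3, DDIT3 and PPP1R15A, a chain of genes that follow phosphorylation of the initiation factor eIF2α, were at 7.61, 17.5 and 18.0 FPKM in vehicle and at 46.6, 86.7 and 104 FPKM with XY018. The autophagy receptor SQSTM1 went from 182 to 858 FPKM (2.24), the ER-associated degradation gene HERPUD1 from 68.0 to 288 FPKM (2.08) and the Golgi membrane protein gene YIF1A from 96.3 to 388 FPKM (2.01). CYP1A1, the usual readout of the aryl hydrocarbon receptor, went from 7.11 to 54.2 FPKM (2.91). The clock gene PER1, the lipid transporter gene MFSD2A and the uridine phosphorylase UPP1 were also among the 20.

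**Figure D2:**
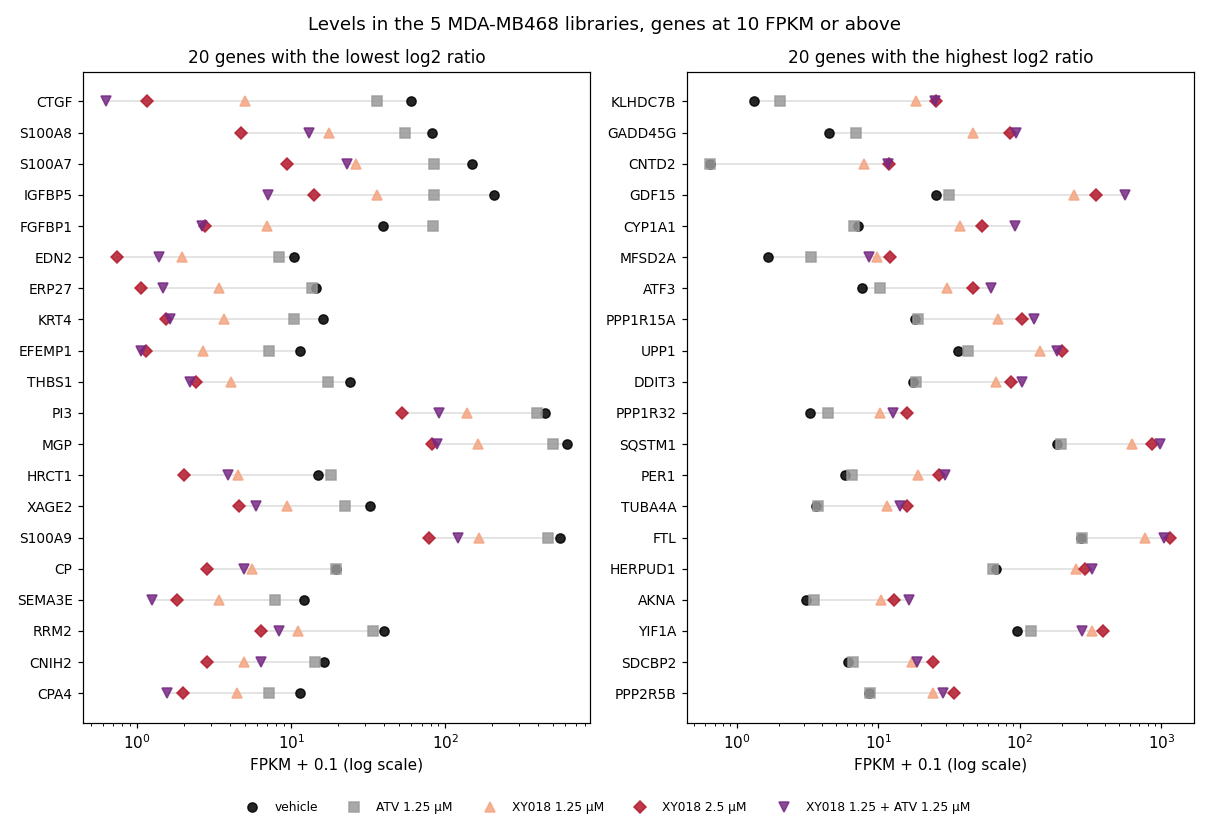
FPKM + 0.1 (log scale) of the 20 genes with the lowest (left) and the 20 with the highest (right) log2 ratio at 2.5 μM XY018 among genes at 10 FPKM or above, in each of the 5 MDA-MB468 libraries of the table, 1 point per library. The genes were chosen by the distance between the black circle (vehicle) and the red diamond (XY018 2.5 μM), so that distance is no finding, and all 4 treated libraries were set against the same vehicle.

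The YAP and TAZ target list had the lowest median of the 46 lists described. Of 19 genes compared, 13 were lower and none was higher, with a median log2 ratio of −1.04, beside 14.5% lower and a median of 0.0020 over all genes. Besides CTGF, the matricellular gene CYR61 went from 51.44 to 12.98 FPKM (−1.98), the angiomotin AMOTL2 from 68.6 to 26.4 FPKM (−1.37), the growth factor TGFB2 from 24.1 to 5.75 FPKM (−2.05) and the ectonucleotidase NT5E from 56.0 to 10.7 FPKM (−2.38). The cardiac ankyrin repeat gene ANKRD1, another classical target, was low in vehicle at 3.34 FPKM and was at 0.32 FPKM with XY018 (−3.03). YAP1 itself was at 37.7 and 29.8 FPKM (−0.34). TEAD factors carry YAP and TAZ to DNA at the letters GGAATG. In the RefSeq promoters, taken as 250 bases before to 50 bases after each annotated start, these letters were found on either strand for 9 of 13 list genes with a promoter entry (69.2%), for 14.9% of all compared genes with one and in 14.03% of all promoters. Here and below a gene counts if any of its starts holds the letters, and this motif was chosen after the levels had been seen. The CTGF promoter (symbol CCN2 in RefSeq) is shown because it holds them 3 times, in capitals below, within 169 bases of the start (GRCh38.p14, chr6:131951442-131951561, minus strand, 5′ to 3′). A match is a description of the letters and not a binding site.
CTGF: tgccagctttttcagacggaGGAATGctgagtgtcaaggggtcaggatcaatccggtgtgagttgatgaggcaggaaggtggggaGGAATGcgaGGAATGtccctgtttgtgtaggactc

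Cytoskeletal genes lay lower beside them. Of 25 actins and targets of serum response factor (SRF), 12 were lower and 2 higher, with a median of −0.56. With ACTB and ACTG1, the tropomyosin TPM1 went from 226 to 92.3 FPKM (−1.29), the filamin FLNA from 664 to 320 FPKM (−1.05), the LIM protein gene FHL2 from 73.8 to 35.4 FPKM (−1.06) and the actin-severing cofilin CFL1 from 1027 to 665 FPKM (−0.63). The list of 16 mesenchymal and matrix genes had 7 lower, among them THBS1 (24.1 to 2.32 FPKM), TNC (5.76 to 1.27 FPKM) and FN1 (24.8 to 12.9 FPKM), and 3 higher, among them the urokinase PLAU (10.1 to 34.1 FPKM, 1.75) and VIM (1.78 to 4.53 FPKM, 1.30). Of 29 junction and adhesion genes 3 were lower and 2 higher, and E-cadherin CDH1 had a log2 ratio of −0.27. Over all genes 14.5% were lower and 14.1% higher, beside 10.3% and 6.90% of the adhesion list and 48% and 8% of the cytoskeletal list. The mesenchymal list had 43.75% lower and 18.75% higher. Differences between these lists were not tested.

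Secreted defence genes and keratins were more often lower than higher. Among 22 acute phase, S100 and secretory defence genes, 13 were lower (59.1%) and 3 higher (13.6%), beside 14.5% and 14.1% over all genes. Their median was −0.96, but it fell short of 1.5-fold without the filter on low values. The higher ones were S100P (25.1 to 68.7 FPKM, 1.45), the protease inhibitor SERPINA3 (36.5 to 76.7 FPKM, 1.07) and the lipocalin LCN2 (520 to 875 FPKM, 0.75). Among keratins, basal KRT5 went from 112 to 40.2 FPKM (−1.48) and KRT14 from 4.63 to 0.45 FPKM (−3.10), luminal KRT8 from 918 to 468 FPKM (−0.97) and KRT19 from 1109 to 710.4 FPKM (−0.64). Higher were KRT10, a keratin of differentiated epidermis (11.1 to 22.1 FPKM, 0.99), KRT6B (log2 ratio 1.00) and KRT86 (0.64). In all, 7 of 16 keratins were lower (43.75%) and 3 higher (18.75%, near the 14.1% over all genes), with a median of −0.51. Of 19 Notch and Wnt pathway genes 8 were lower and none higher (median −0.42), including β-catenin, CTNNB1 (118 to 55.0 FPKM, −1.10), the Wnt inhibitor SFRP1 (120 to 52.1 FPKM, −1.1985), the ligand JAG2 and the receptor NOTCH3. The list of basal and receptor genes that describe breast lines had 6 of 13 lower and none higher (median −0.57), among them KRT5 and CDH3 (31.8 to 14.1 FPKM).

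Genes of DNA replication and mitosis that passed 1.5-fold were all lower. Of 36 replication genes 24 were lower and none higher (median −0.76), and of 32 genes of mitosis and the spindle 16 were lower and none higher (median −0.60). Of 22 DNA repair genes 9 were lower and 1 higher (median −0.54). PCNA, the sliding clamp, was at 223 FPKM in vehicle and 89.4 FPKM with XY018 (−1.32, interval −1.39 to −1.24). The MCM helicase subunits MCM2 to MCM7 had log2 ratios from −1.28 (MCM5) to −0.52 (MCM7), and GINS2, its partner at the fork, −1.74. UHRF1, which copies DNA methylation, went from 14.9 to 3.42 FPKM (−2.09). In mitosis the kinesin KIF20A (44.3 to 15.9 FPKM), the ring protein ANLN (39.25 to 15.02 FPKM), the securin PTTG1 (247 to 121 FPKM) and cyclin A2, CCNA2 (28.3 to 14.1 FPKM), were each 2.0-fold lower or more. In bulk RNA, fewer cycling cells and less RNA per cell cannot be told apart.

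Among regulators of G1, cyclins D1, E1 and E2 were lower and 3 inhibitors were higher. Cyclin D1, CCND1, went from 73.3 to 16.5 FPKM (−2.15, interval −2.24 to −2.07), cyclin E2, CCNE2, from 9.52 to 3.16 FPKM (−1.56), cyclin E1, CCNE1, from 8.76 to 3.72 FPKM (−1.21), E2F1 from 27.2 to 10.8 FPKM (−1.33) and MYC from 67.4 to 41.9 FPKM (−0.68). The inhibitors CDKN1A (11.4 to 24.3 FPKM, 1.08), CDKN1B (13.97 to 22.51 FPKM, 0.68) and CDKN1C (2.01 to 5.93 FPKM, 1.51) were higher. In all, 7 of 20 genes were lower (35%, beside 14.5% over all genes) and 3 higher (15%, near the 14.1% over all genes). CDKN1A is also a p53 target, and MDA-MB468 is known to carry mutant p53. Of 19 p53 targets 4 were higher (21.1%, beside 14.1% over all genes), among them GADD45A (28.6 to 62.5 FPKM, 1.13) and the death gene BBC3 (8.70 to 26.5 FPKM, 1.59), and 1 was lower. Among 27 apoptosis genes 5 were higher (18.5%, near the 14.1% over all genes) and none lower, with BMF at 5.61 and 14.7 FPKM (1.37) and the survival gene MCL1 at 63.9 and 54.1 FPKM (−0.24).

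The E2F letters TTTNNCGC were present in the promoters of 20 of 31 replication genes (64.5%), of 3 of 27 mitosis genes (11.1%), and of 13.2% of all compared genes, and in 6.89% of all promoters. Among the replication genes that hold them, PCNA and GINS2 were lower while the licensing factors CDT1 and CDC6 had log2 ratios of 0.04 and −0.47. The promoters of MCM6 and PCNA are printed because they belong to the clamp and the helicase, with matches on either strand in capitals, and in MCM6 each run of capitals holds overlapping matches on both strands. The MCM6 stretch lies at chr2:135876499-135876618 and the PCNA stretch at chr20:5126623-5126737, both on the minus strand of GRCh38.p14. MCM6 itself was at 37.7 FPKM in vehicle and 18.6 FPKM with XY018 (−1.02).
MCM6: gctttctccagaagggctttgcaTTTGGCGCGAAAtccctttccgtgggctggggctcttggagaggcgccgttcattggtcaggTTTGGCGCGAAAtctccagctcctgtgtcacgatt
PCNA: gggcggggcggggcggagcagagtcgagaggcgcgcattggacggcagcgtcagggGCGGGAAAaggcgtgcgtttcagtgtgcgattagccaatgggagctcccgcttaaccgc

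**Figure D3:**
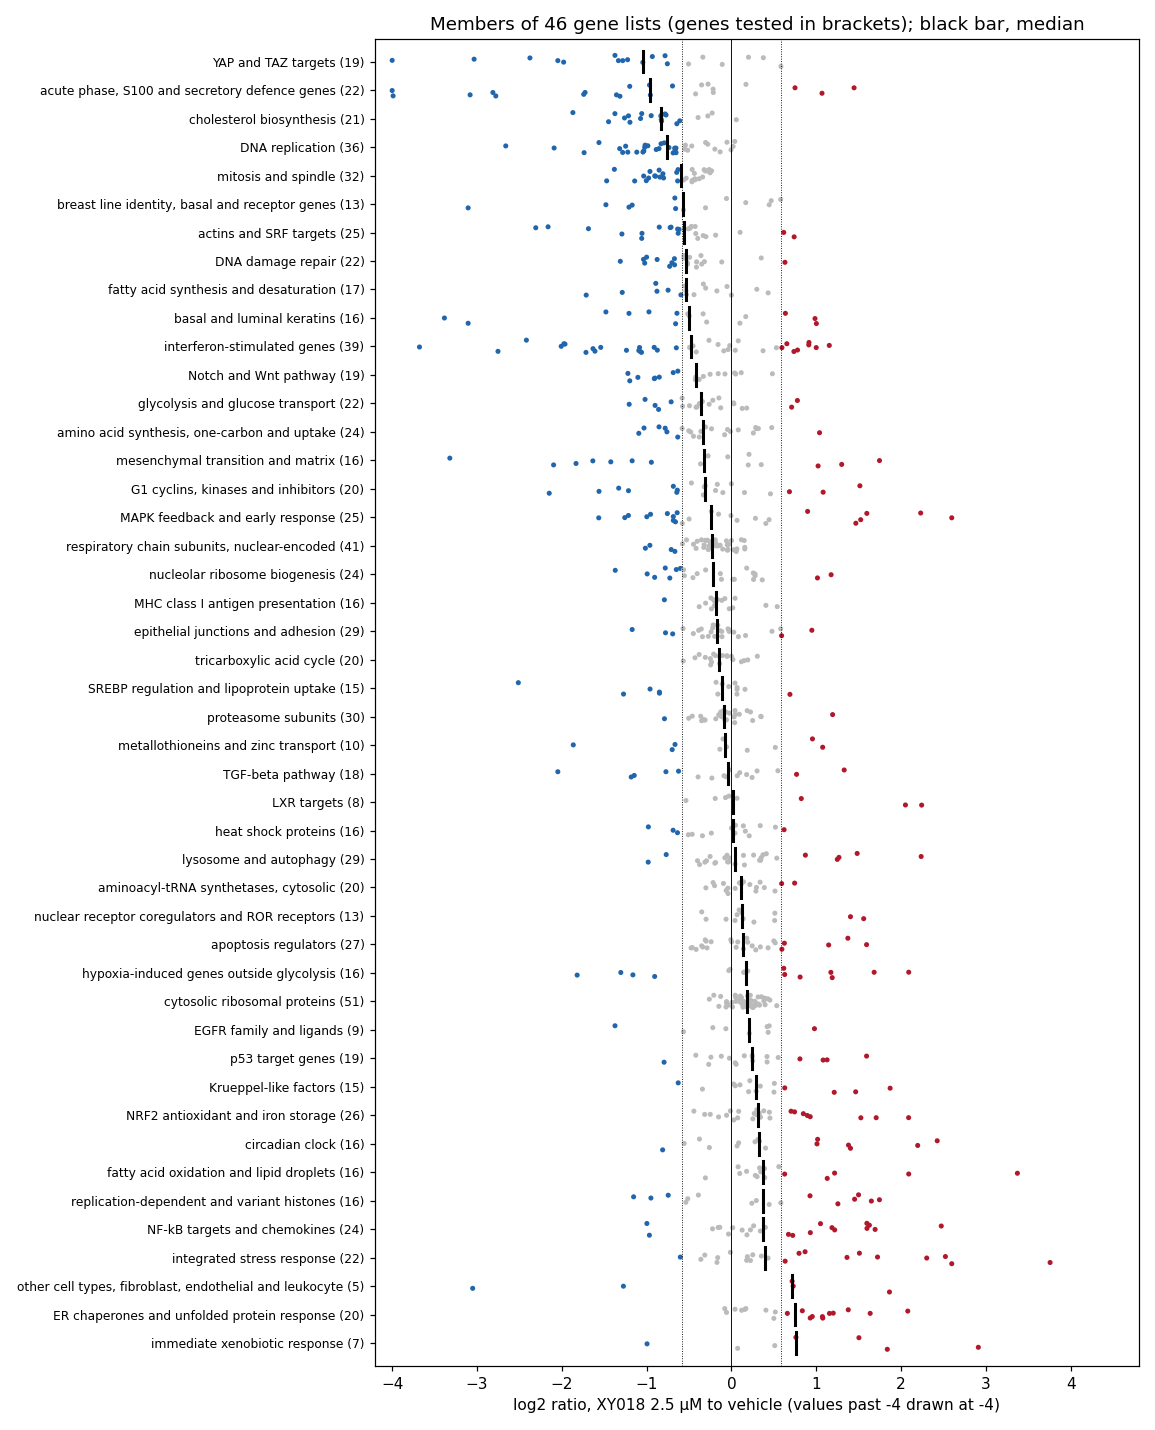
Log2 ratio of XY018 2.5 μM to vehicle (x axis) for every compared member of 46 gene lists (y axis, number compared in brackets), with a point per gene, blue when lower and red when higher by 1.5-fold, and a black bar at the list median. Medians run from −1.04 for YAP and TAZ targets to 0.76 for 7 genes of the xenobiotic response, and 5 lists lie at or beyond the lower dotted line and 3 beyond the upper.

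Genes of MAPK feedback and early response were called in both directions. Of 25 genes 10 were lower (40%, beside 14.5% over all genes) and 6 higher (24%, beside 14.1%), with a median of −0.24. Among the lower genes were DUSP6 at 4.07 and 1.31 FPKM (−1.56), ETV5 at 12.1 and 5.14 FPKM (−1.21), SPRY4 at 6.15 and 3.03 FPKM (−0.998) and EGR1 at 12.5 and 5.17 FPKM (−1.26). The AP-1 subunits JUN (14.6 to 42.2 FPKM, 1.52) and JUND (65.7 to 199 FPKM, 1.60), the phosphatase DUSP1 (3.47 to 9.77 FPKM, 1.47) and ATF3 were higher. The EGFR inhibitor ERRFI1 was lower (53.9 to 20.8 FPKM, −1.37), and EGFR had a log2 ratio of −0.57, just short of the threshold.

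Of 17 genes of fatty acid synthesis and desaturation 6 were lower and none higher, including ATP citrate lyase, ACLY (97.72 to 39.98 FPKM, −1.29), and fatty acid synthase, FASN (449 to 244 FPKM, −0.88). For orientation, 17 of the 21 sterol enzymes were lower, and the sterol regulatory element letters TCACNCCAC stood in the promoters of 0 of 16 of them and in 1.46% of those of all compared genes. Only these exact letters were searched. With so low a share over all genes, 0 of 16 does not show that the element is absent. The paper reported binding of SREBP2 at the majority of the sterol enzyme genes by ChIP-seq in HCC70. Glycolysis had 5 of 22 lower (22.7%, beside 14.5% over all genes) and 2 higher (9.09%, beside 14.1%), with a median of −0.36, and with lactate dehydrogenase LDHA at 239 and 103 FPKM (−1.21), enolase ENO1 at 775 and 415 FPKM (−0.90), pyruvate kinase PKM at 416 and 229.6 FPKM (−0.86) and hexokinase HK2 higher at 9.43 and 15.5 FPKM (0.71). The 20 genes of the tricarboxylic acid cycle had none past 1.5-fold in either direction, and of 41 nuclear-encoded respiratory chain subunits 4 were lower and none higher. Fatty acid oxidation and lipid droplets had 5 of 16 higher and none lower, with the triglyceride lipase PNPLA2 at 68.2 and 149 FPKM (1.13). PDK4, which spares glucose, was at 0.07 and 1.66 FPKM and passed the filter of 1 FPKM only through the XY018 library.

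Interferon-stimulated genes were more often lower than higher. Of 39 genes 18 were lower (46.2%, beside 14.5% over all genes) and 8 higher (20.5%, beside 14.1%), with a median of −0.48. Lower were the membrane restriction factors IFITM1 (86.9 to 22.2 FPKM, −1.96), IFITM2 (9.40 to 1.31 FPKM, −2.75) and IFITM3 (644 to 221 FPKM, −1.54), IFI6 (16.7 to 4.07 FPKM, −2.01), the GTPase MX1 (40.3 to 12.9 FPKM, −1.63) and OAS3 (10.47 to 3.12 FPKM, −1.71). Higher were the transcription factors IRF1 (14.3 to 27.1 FPKM, 0.91), IRF7 (20.9 to 35.9 FPKM, 0.78) and STAT2 (7.49 to 11.8 FPKM, 0.65) and the effectors ISG20 and OASL. ISG15, a ubiquitin-like modifier, was at 40.2 and 42.5 FPKM (0.08). The IFITM genes are near-copies of each other and may share reads. The letters GAAANNGAAA of the interferon-stimulated response element stood in the promoters of 22 of 30 list genes (73.3%) and of 3.75% of all compared genes, with 3.57% of all promoters, and they were held by genes of both directions, among them IFITM3 and MX1 on the lower side and ISG20 on the higher. The IFITM3 promoter is shown with its matches in capitals (GRCh38.p14, chr11:320861-320958, minus strand).
IFITM3: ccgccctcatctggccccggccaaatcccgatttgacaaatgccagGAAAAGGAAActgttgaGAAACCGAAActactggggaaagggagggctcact

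Of 16 genes of MHC class I presentation (median −0.18) 1 was lower, the peptide transporter TAP2 (41.7 to 24.1 FPKM), and none was higher. Of 24 NF-κB targets and chemokines 11 were higher and 2 lower (median 0.37). Manganese superoxide dismutase, SOD2, went from 65.7 to 213 FPKM (1.69), the feedback inhibitors TNFAIP3 from 4.78 to 14.97 FPKM (1.63) and NFKBIA from 33.6 to 76.7 FPKM (1.19), the subunits NFKB2 from 20.9 to 48.8 FPKM (1.22) and RELB from 13.4 to 27.9 FPKM (1.05), and the cytokines TNF from 3.0 to 9.28 FPKM (1.60) and CCL5 from 4.50 to 13.8 FPKM (1.60). CXCL1 was lower (29.7 to 15.1 FPKM, −0.97) and CXCL8 was at 16.5 and 16.1 FPKM.

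Of the stress programs, the integrated stress response held higher genes and genes near vehicle. Of its 22 genes 10 were higher and 1 lower (median 0.39). The kinase gene EIF2AK3, which encodes PERK, went from 5.90 to 17.0 FPKM (1.51), and the pseudokinase TRIB3, a DDIT3 target, from 157 to 287 FPKM (0.87). ATF4, which is controlled mainly at translation, was at 725 and 644 FPKM (−0.17), CHAC1 at 16.4 and 14.7 FPKM (−0.16) and the asparagine synthetase ASNS at 104 and 80.9 FPKM (−0.36). The 24 genes of amino acid synthesis, one-carbon metabolism and uptake, many of them ATF4 targets, had 6 lower and 1 higher (median −0.33). The serine pathway enzymes PSAT1 (151 to 73.8 FPKM, −1.03) and PSPH (219 to 129 FPKM, −0.76) and the transporter SLC38A2 (68.9 to 32.3 FPKM, −1.09) were among the lower ones, and ALDH18A1, an enzyme of proline synthesis, was the higher one (24.1 to 49.7 FPKM, 1.04). Of 20 cytosolic aminoacyl-tRNA synthetases 2 were higher, SARS and WARS (10.0%, under the 14.1% over all genes), and none was lower. The response element of the amino acid arm, TGATGNAA, was found in 5 of 19 promoters of the stress list (26.3%) and in 2.62% of those of all compared genes (3.62% of all promoters), and ATF3 and ASNS, on opposite sides of vehicle, both held it.

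ER chaperones and the unfolded protein response had the second highest median of the 46 lists, below the 7 xenobiotic genes, and the families of Golgi transport, which were added later, were not among the 46. Of 20 genes 11 were higher and none lower, with a median of 0.75, beside 14.1% higher over all genes. The lumenal chaperone BiP, HSPA5, was at 106 FPKM in vehicle and 329 FPKM with XY018 (1.64, interval 1.60 to 1.67). HERPUD1 and the ubiquitin ligase SYVN1 (52.5 to 117 FPKM, 1.16) serve degradation, SDF2L1 (30.3 to 78.8 FPKM, 1.38) and HYOU1 (108 to 249 FPKM, 1.2007) serve folding, and the sensor ERN1 was at 2.40 and 6.33 FPKM (1.36). The factor XBP1 was at 171 and 164 FPKM (−0.06), HSP90B1 had a log2 ratio of 0.17 and PDIA6 one of −0.08, so chaperones that are usually named together did not move together. The ER stress response element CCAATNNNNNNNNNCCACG stood in 7 of 19 list promoters (36.8%) and in 0.163% of those of all compared genes (0.0769% of all promoters), a motif also chosen after the levels had been seen. Holders were, among others, HSPA5, XBP1 and PDIA6. The HSPA5 promoter carries it 66 bases before the start, shown in capitals (GRCh38.p14, chr9:125241344-125241459, minus strand).
HSPA5: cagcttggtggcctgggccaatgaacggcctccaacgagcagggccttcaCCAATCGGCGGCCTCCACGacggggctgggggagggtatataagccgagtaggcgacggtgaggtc

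A sweep of 418 gene ontology processes with 15 to 150 compared genes, taken from the annotation in the table, was ranked by the median log2 ratio. The lowest were leukocyte chemotaxis (19 genes, 10 lower and 2 higher, median −0.64), which here held EDN1, EDN2, SAA1 and TGFB2, then mitotic sister chromatid segregation (25 genes, 12 lower and none higher, −0.56) and metabolism of long-chain fatty-acyl-CoA (15 genes, 6 lower and none higher, −0.53). The highest was regulation of ARF protein signal transduction (24 genes, 12 higher and 1 lower, 0.55), followed by vesicle coating (15 genes, 5 higher and 1 lower, 0.48), and Golgi vesicle transport was also among the 10 highest (93 genes, 27 higher and 3 lower, 0.30). Vesicle coating and Golgi vesicle transport share genes, such as SEC13 and SEC31A. The higher genes of ARF regulation included AGAP4, AGAP5, AGAP6, AGAP9 and AGAP11, related genes on chromosome 10 that may share reads. Each of them was below 10 FPKM in both libraries. AGAP11 (0.72 and 1.43 FPKM) passed the filter of 1 FPKM only through the XY018 library. Catabolic processes made up largely of autophagy genes (33 genes, 10 higher and 3 lower, 0.26) were among the 10 as well.

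Parts of the machinery of transport between the ER and the Golgi were therefore listed by family, after those values had been seen. Of 68 genes compared in 6 families, 41 were higher (60.3%) and none was lower, with a median log2 ratio of 0.81. Over all genes 14.1% were higher and 14.5% lower. These counts depend on the choice of members, since 27 of the 93 genes of Golgi vesicle transport were higher and 3 lower. Genes left out of the families lay on both sides. Among them were the ARF regulators ASAP1 (−0.93) and ASAP3 (0.66) and the TRAPP tether genes TRAPPC1 (−0.02) and TRAPPC2 (0.65). COPII, the coat of vesicles that leave the ER, had 6 of 12 genes higher, with SEC13 at 77.2 and 204 FPKM (1.40, interval 1.32 to 1.48), SEC24D at 12.1 and 30.6 FPKM (1.33) and SEC31A at 29.8 and 72.1 FPKM (1.27). COPI, the coat of vesicles that return, had 5 of 8 higher, with COPA at 1.22 and COPG1 at 1.16 on the log2 scale, and its alternative subunit COPG2 lay on the other side at −0.57. The SNAREs that fuse these vesicles had 10 of 12 higher, among them BET1L (1.42), GOSR2 (1.13) and STX5 (0.85).

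Golgi tethers and GTPases held both higher genes and genes near vehicle. Golgins and YIP family proteins had 12 of 17 higher, with GOLGA2 at 38.3 and 109.6 FPKM (1.51), YIPF2 at 73.5 and 244 FPKM (1.73) and YIF1A as given. Of 11 ARF GTPases and their regulators 5 were higher, and of 8 subunits of the COG tether 3 were higher, COG6 (1.87), COG3 (1.35) and COG1 (1.1975). ARF4 (chr3:57557090-57583947 on GRCh37), a small GTPase of the Golgi, was at 82.99 FPKM in vehicle and 316 FPKM with XY018 (1.93, interval 1.87 to 1.99), while ARF3 and ARF5 had log2 ratios of −0.17 and −0.07 and the exchange factor GBF1, the target of brefeldin A, 1.11. CREB3, an ER-bound transcription factor that is known to induce ARF4 when the Golgi is stressed, went from 61.6 to 155 FPKM (1.33). Its relatives CREB3L2 and CREB3L4 had log2 ratios of −0.04 and −0.30. TFE3, the factor of another Golgi stress pathway, was at 19.9 and 26.5 FPKM (0.41).

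The Golgi apparatus stress response element, ACGTGGC, is the sequence known for TFE3. It stood in the promoters of 19 of 59 trafficking genes with an entry (32.2%) and in 5.80% of those of all compared genes (3.215% of all promoters), and this motif was also chosen after the levels had been seen. Holders included SEC13, SEC31A, COPG1, COPB2, STX5 and GOLGA5, all higher, and SAR1A and SEC24C, with log2 ratios of 0.27 and 0.48. CREB3 holds the letters as well. Stretches from 3 promoters are printed, with the letters or their reverse complement in capitals. COPG1 is on the plus strand at chr3:129249542-129249605, SEC31A, at the first of its annotated starts, on the minus strand at chr4:82900570-82900675 and CREB3 on the plus strand at chr9:35732444-35732562, all on GRCh38.p14.
COPG1: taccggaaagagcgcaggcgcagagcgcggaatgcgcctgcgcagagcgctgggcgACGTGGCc
SEC31A: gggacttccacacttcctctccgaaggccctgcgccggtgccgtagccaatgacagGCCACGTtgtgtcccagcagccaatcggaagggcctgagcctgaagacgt
CREB3: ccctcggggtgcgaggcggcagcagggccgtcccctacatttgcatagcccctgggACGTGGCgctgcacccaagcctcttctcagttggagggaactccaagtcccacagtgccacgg

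**Figure D4:**
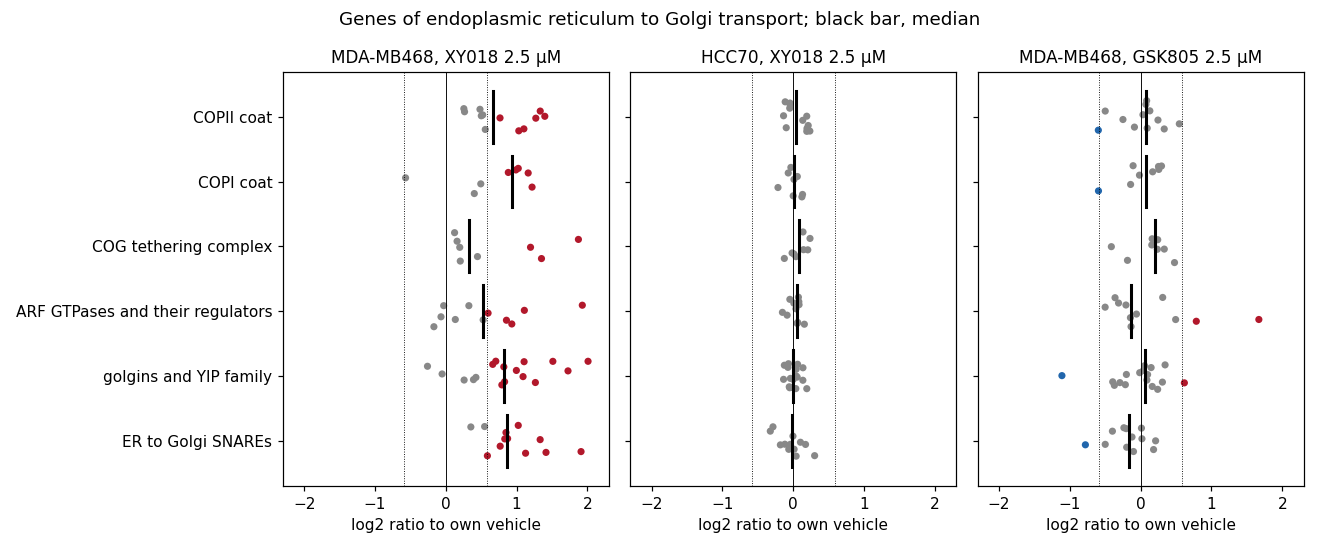
Log2 ratio to the vehicle of the same table (x axes) of the genes in 6 families of ER to Golgi transport (y axis) for XY018 in MDA-MB468, XY018 in HCC70 and GSK805 in MDA-MB468, each at 2.5 μM. Each point is a gene, red when higher and blue when lower by 1.5-fold, black bars are medians; 41 of 68 genes are red in the first panel, none in the second and 3 in the third.

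The 3 comparisons in that plot use separate vehicles. In HCC70 with XY018 the same 68 genes had their median at 0.01, with none past 1.5-fold in either direction. Over all genes of HCC70 only 3.26% were lower and 2.62% higher, so none of 68 is near those shares. With GSK805 in MDA-MB468 the median was 0.02, with 3 higher and 4 lower. Beside this, 17.6% were higher and 16.6% lower over all 19951 names compared there. Of the 11323 genes compared with both compounds, 1337 were higher and 1325 lower with GSK805. ARF4 was at 175 and 164 FPKM in HCC70 (−0.09) and had a log2 ratio of −0.31 with GSK805. Whether the 3 comparisons differ cannot be tested with 1 library per condition. Within the table of this experiment the median was 0.65 with XY018 at 1.25 μM, 0.63 with XY018 and ATV together and 0.00044 with ATV alone, each against the same vehicle library.

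Of 29 genes of lysosomes and autophagy 5 were higher (17.2%, against 14.1% over all genes) and 2 lower (median 0.04), so the share higher was near that of all genes. Besides the lysosomal sialidase NEU1, those that were higher serve autophagy, namely SQSTM1, MAP1LC3B (42.5 to 119 FPKM, 1.48), ULK1 (11.2 to 27.1 FPKM, 1.27) and WIPI1 (26.5 to 63.0 FPKM, 1.25), whereas the lysosomal membrane protein LAMP1 was at 215 and 211 FPKM and the hydrolase CTSB was lower (148 to 86.9 FPKM, −0.77). Of 26 NRF2 targets and iron storage genes 8 were higher and none lower (median 0.31). Besides ferritin they included GCLC, which makes glutathione (22.9 to 75.1 FPKM, 1.71), OSGIN1 and SRXN1, while the usual NRF2 readouts NQO1 (63.1 and 66.4 FPKM), TXNRD1 (87.3 and 83.9 FPKM) and SLC7A11 (3.51 and 3.48 FPKM) were within 0.1 of vehicle on the log2 scale. Of 16 heat shock proteins 3 were lower (18.75%, near the 14.5% over all genes), among them HSP90AA1 (273 to 138 FPKM, −0.98), and 1 higher, mitochondrial HSPA9.

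Genes of the circadian clock were higher in part. REV-ERBα, NR1D1, was higher (6.94 to 18.5 FPKM, 1.40), as were the clock genes PER1 (5.74 to 26.7 FPKM, 2.20), CRY2 (3.56 to 9.43 FPKM, 1.38), DBP (21.1 to 42.9 FPKM, 1.02) and NFIL3 (10.2 to 20.5 FPKM, 1.01). CLOCK was at 5.91 and 4.92 FPKM (−0.26) and ARNTL at 6.68 and 8.32 FPKM (0.31), so that of 16 clock genes 6 were higher and 1, TEF, lower. Of 13 nuclear receptor and coregulator genes 2 were higher (15.4%, near the 14.1% over all genes) and none was lower.

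Efflux transporters, xenobiotic enzymes, histones, Krüppel-like factors and hypoxia genes each held some higher genes. Over all genes 14.1% were higher and 14.5% lower. ABCA1 and ABCG1, which export cholesterol under liver X receptors, were at 0.24 and 1.14 FPKM in vehicle and 1.31 and 5.77 FPKM with XY018. ABCA1 passed the filter of 1 FPKM only through the XY018 library. With it counted, 3 of 8 LXR targets were higher and none lower. Of 7 xenobiotic response genes 4 were higher and 1 lower, and their median fell short of 1.5-fold without the filter on low values. The aldehyde dehydrogenase ALDH3A1 (2.82 to 10.3 FPKM, 1.84) and TIPARP (3.66 to 6.27 FPKM, 0.76) accompanied CYP1A1, and CYP1B1 was at 47.1 and 67.2 FPKM (0.51). Of 16 histone genes 6 were higher (37.5%) and 3 lower (18.75%, near the 14.5% over all genes). The linker histone H1F0, known from cells that leave the cycle, went from 105 to 351 FPKM (1.75), while H2AFZ (233 to 121 FPKM, −0.95) was lower. The genes KLF4 (2.83 to 10.6 FPKM, 1.87) and KLF15 (2.41 to 6.83 FPKM, 1.47) were among 4 of 15 Krüppel-like factors that were higher, and 7 of 16 hypoxia genes were higher and 4 lower, with NDRG1 at 22.3 and 71.8 FPKM (1.68) against CA9 at 5.58 and 1.51 FPKM (−1.82).

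Ribosomal proteins and the proteasome held few genes past the threshold. None of 51 cytosolic ribosomal protein genes passed 1.5-fold (median 0.18), and of 30 proteasome subunits 1 was lower, PSMA4 (65.4 to 37.8 FPKM), and 1 higher, PSMC4 (65.0 to 149 FPKM, 1.19). Genes of ribosome assembly in the nucleolus had 7 of 24 lower and 2 higher, with nucleolin, NCL, at 258 and 156 FPKM (−0.73) against PES1 at 61.5 and 139 FPKM (1.18). Medians of the remaining lists lay between −0.11 and 0.21, with 1 of 9 EGFR family genes lower and 1 higher, 5 of 18 TGF-β pathway genes lower and 2 higher, 3 of 10 metallothionein and zinc genes lower and 2 higher, and 5 of 15 genes of SREBP regulation lower and 1 higher, all beside 14.5% lower and 14.1% higher over all genes. The shares of EGFR family genes, at 11.1% in each direction, and of higher TGF-β genes, at 11.1%, were near these.

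The same table allows the values to be read beside lower dose and statin. With XY018 at 1.25 μM 8.37% of genes were lower and 9.73% higher than vehicle, with both compounds 12.2% and 13.1%, and with ATV alone 0.803% and 1.37%. CTGF was at 59.4 FPKM in vehicle, 35.8 FPKM with ATV, 4.94 FPKM with XY018 at 1.25 μM, 1.06 FPKM at 2.5 μM and 0.53 FPKM with both compounds. GDF15 was at 25.5, 31.5, 242, 346 and 551 FPKM in that order, ARF4 at 82.99, 83.6, 283, 316 and 254 FPKM, and CCND1 at 73.3, 70.9, 27.0, 16.5 and 19.8 FPKM. For these 4 genes the ATV library lay nearer to vehicle than each of the 3 libraries with XY018 did, although CTGF was lower in it too. FGFBP1 moved to opposite sides of its vehicle level of 39.2 FPKM. It was at 83.3 FPKM with ATV (log2 ratio 1.085) and 2.65 FPKM at 2.5 μM XY018 (−3.84). All 4 treated libraries were set against 1 vehicle, so an error in it would enter each of them.

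HCC70 responded to the same dose on a smaller scale, with 3.26% of its genes lower and 2.62% higher against its own vehicle. Of 10856 genes expressed in both lines, 1445 were lower in MDA-MB468 and 272 in HCC70, and 95 were lower in both, which is 6.57% of the former and 34.9% of the latter. For higher genes the numbers were 1383, 208 and 56, or 4.05% and 26.9%. Beside these overlaps, over all genes of each line 3.26% were lower and 2.62% higher in HCC70, and 14.5% and 14.1% in MDA-MB468. CTGF was at 0.13 FPKM in both HCC70 libraries, too low to show a decrease. In HCC70 the log2 ratio of PCNA was −0.11, that of HSPA5 0.29 and that of FTH1 −0.12, while GDF15 was at 0.60 and 2.35 FPKM (1.81) and DDIT3 at 8.38 and 15.5 FPKM (0.88). The sterol enzymes had a median of −1.46 in HCC70 against −0.83 in MDA-MB468, and the YAP and TAZ targets 0.12 against −1.04. Amino acid genes had medians on opposite sides of 0, at 0.41 in HCC70 and −0.33 in MDA-MB468. These differences between lines were not tested.

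GSK805 at 2.5 μM in the same line, in a separately normalized table with more kinds of genes, had 16.6% of 19951 names lower and 17.6% higher against its own vehicle. These shares rest on another set of genes than those of XY018, so the counts over shared genes that follow are the like comparison. Of 11323 genes expressed in both tables, 1642 were lower with XY018 and 1325 with GSK805, and 566 were lower with both (34.5% and 42.7%), while 461 were higher with both (30.3% of 1522 and 34.5% of 1337). Opposite calls were made for 85 genes lower and 80 genes higher with XY018. The base for these overlaps is 1325 lower and 1337 higher with GSK805 among all 11323 genes. With XY018 14.5% of all its compared genes were lower and 14.1% higher. Replication genes had a median of −0.68 with GSK805 and −0.76 with XY018, mitosis genes −0.48 and −0.60, actin and SRF genes −0.50 and −0.56 and YAP and TAZ targets −0.66 and −1.04. CYP1A1 had log2 ratios of 2.69 and 2.91 and ACTB −1.96 and −2.31. ER chaperones, by contrast, had medians of 0.08 and 0.75, HSPA5 log2 ratios of 0.28 and 1.64, CCND1 −0.21 and −2.15, and ABCG1 −1.24 and 2.24. XY018 and GSK805 were given at the same dose and time, but in different experiments with 1 library each, so the difference between the compounds has no interval beyond counting error and was not tested.

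**Figure D5:**
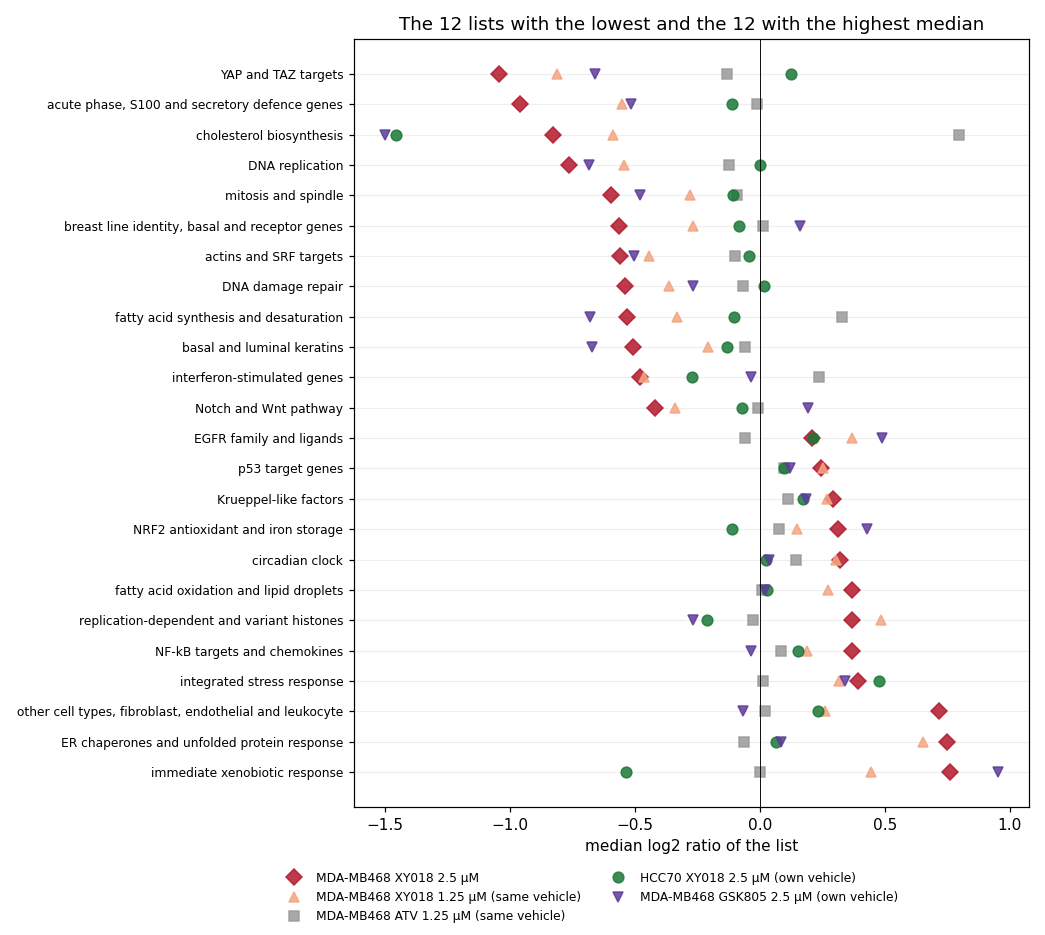
Median log2 ratio (x axis) of the 12 gene lists with the lowest and the 12 with the highest median at 2.5 μM XY018 in MDA-MB468 (red diamonds), beside their medians in 4 other comparisons. XY018 at 1.25 μM and ATV share the vehicle of the red diamonds, HCC70 and GSK805 have their own; ER chaperones stand at 0.75 for the red diamond and at 0.06 and 0.08 for HCC70 and GSK805, and replication genes at −0.76, 0.00 and −0.68.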

How the data were processed

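RNA-seq libraries of MDA-MB468 and HCC70 cells treated for 24 h were used, 1 per condition, so the conditions are groups of 1. The authors prepared them with a Tru-Seq kit, aligned reads to GRCh37/hg19 by BWA and Bowtie, and obtained gene values from Cufflinks. The deposited tables hold FPKM, according to the methods and the range of values, since the headers name no unit. The layout of the XY018 tables resembles that of RSEM output, so the tool and the exact unit are not certain. Each table was normalized separately.

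Log2 ratios used a pseudocount of 0.1 and genes at 1 FPKM or above in either library. Depth was estimated from the spacing of low FPKM values, with 40 nt taken off each transcript length. The calculation was tested on simulated data. The members, 46 lists of 1054 genes, naming rule and motifs were chosen with earlier results of these data known, and the 7 lists of Golgi transport and the CREB3 family and 3 motifs were added after values had been seen. By the rule, named genes are the 20 lowest and 20 highest ratios at 10 FPKM or above, up to 5 per list and direction at 5 FPKM or above with the list's most abundant gene, the 10 most abundant genes, the genes beside the threshold and a few regulators. Other members were named after their values were seen. Gene positions are from GENCODE on GRCh37 and promoters from RefSeq on GRCh38.p14 (35116 promoters, entries for 9789 compared genes). A few genes are not reported here. Alternatives were other pseudocounts, filters and scalings, a 2-fold threshold and ATV as the reference. Versions were matplotlib 3.10.9, scipy 1.17.1, pandas 2.3.3, numpy 2.4.6 and Python 3.11.15.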

Additional observations from a re-analysis of the deposited data

Results flagged for a closer look

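Among 274 named genes at 5 FPKM or above in both cell lines, 8 passed 1.5-fold in opposite directions with XY018 at 2.5 μM in MDA-MB468 and HCC70. The difference between the lines was not tested, since each value rests on 1 library against 1 vehicle. CYP1A1 had log2 ratios of 2.91 in MDA-MB468 and −1.89 in HCC70, where it went from 24.5 to 6.55 FPKM. EGR1 had −1.26 and 1.38, and CD14 −1.27 and 1.30, the latter from 170.0 to 419 FPKM in HCC70. CA9 had −1.82 and 0.80, KRT23 −1.21 and 0.60, and LTBP1 −0.77 and 0.59. KRT6B had 1.00 and −0.80, and OASL 0.91 and −1.08. KRT6B has near-identical relatives that could share its reads. Of 10856 genes expressed in both lines, 1445 were lower in MDA-MB468, and 36 of these were higher in HCC70. Another 1383 were higher in MDA-MB468, and 49 of these were lower in HCC70. Over all genes of HCC70 2.62% were higher and 3.26% lower. Both counts are near these shares and are not read as a difference between the lines.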

How the results depend on the processing

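The counts of genes lower and of genes higher than vehicle stayed within 1.5 times of 1723 and 1682 under pseudocounts of 1 and 0.01, both rescalings, a filter at 5 FPKM and ATV as the reference (1561 and 1497). A 2-fold threshold gave 627 and 643, and no filter on low values gave 2626 higher genes. Every Entrez entry was already kept, so that alternative left the counts as they were. No list median past 1.5-fold and no named gene past it changed sign under any alternative run. Against ATV, 15 of 53 list medians moved by more than the median counting error of their genes, among them the sterol enzymes (−0.83 to −1.62), LXR targets (0.02 to 0.56) and interferon genes (−0.48 to −0.80), and 30 of 316 named genes no longer reached 1.5-fold, among them SERPINA3 (1.07 to 0.17), KRT6B (1.00 to 0.22), TIMP3 and OASL (0.91 to 0.36). The mitosis median moved from −0.60 to −0.51 with ATV, −0.58 with a pseudocount of 1 and −0.56 with a filter at 5 FPKM, each short of 1.5-fold. Without a filter the acute phase median was −0.45 and the xenobiotic median 0.29, both short of 1.5-fold, and with a filter at 5 FPKM the interferon median was −0.76. The causes were not tested. A gene near 1 FPKM rests on few fragments, and variation between cultures is not measured. No paired analysis was possible because each group compared has 1 library, so that the groups share fewer than 2 replicate numbers.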
